A study of Homo sapiens with 3 samples.

Results

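The regions described here were H3K27ac regions of LNCaP cells whose 2 edges lay in H3K4me1 regions while their midpoint did not, so that H3K4me1 stood as a shoulder on each side of an H3K4me1-free valley. They were chosen by 3 values: a width of 2 kb to under 10 kb on chromosomes 1 to 22, H3K4me1 in the first and the last 50 bp bin, and no H3K4me1 in the bin at the midpoint. Of 71077 H3K27ac regions in all, 24903 met the limits of width and chromosome, and 1708 of these (6.86%, exact 95% interval 6.55% to 7.18%) had the shoulders and the free midpoint. They are called shouldered regions below.

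LNCaP is an androgen-responsive line grown from a metastasis of a human prostate carcinoma. The series holds 3 samples of it as labelled here, a ChIP of H3K27ac, a ChIP of H3K4me1 and an input without antibody, with no treatment named and 1 library each. The 2 ChIP libraries gave 1 region list each, the input was not analysed here, and the other cell lines of the study were not analysed here. There was no replicate, so no spread between samples could be measured and no p-value was computed. The intervals cover counting error over regions only, and neighbouring regions are not independent. Read counts are not part of the lists, which leaves depth unknown, and a position outside a list cannot be read as lacking the mark. Coordinates are hg19, counted from 1.

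H3K27ac, acetylation of histone H3 at lysine 27, marks active enhancers and active promoters. H3K4me1, monomethylation at lysine 4, is laid down around enhancers, largely by the methyltransferases KMT2C and KMT2D. At active promoters the nucleosomes beside the start site carry trimethylation of lysine 4 in place of monomethylation, and H3K4me1 is found further out on both sides. Enhancers also have a short nucleosome-free site between marked nucleosomes. In luminal prostate cells many enhancers with both marks are bound by the androgen receptor and FOXA1. Trimethylation was not analysed here and start sites were not mapped, so whether a shouldered region is a promoter was not tested.

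Shouldered regions were a minority among the arrangements of the marks. In 10598 regions of the same width range (42.6%) both edges and the midpoint lay in H3K4me1, and in 6255 (25.1%) the midpoint and a single edge did. The reverse of the shouldered arrangement, with the midpoint alone in H3K4me1, was found in 2096 regions (8.42%, 8.07% to 8.77%). None of the 3 bins was covered in 1836 regions (7.37%). A single edge alone was covered in 2410 regions (9.68%).

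The share of shouldered regions was highest at intermediate width. It was 6.26% (5.87% to 6.67%) among the 14136 regions of 2 kb to under 3 kb, 8.79% (8.07% to 9.55%) among the 5757 of 3 kb to under 4 kb, 7.29% (6.47% to 8.18%) among the 3675 of 4 kb to under 6 kb and 3.67% (2.73% to 4.82%) among the 1335 of 6 kb to under 10 kb. The interval of the second class overlapped neither that of the narrowest nor that of the widest class. At the lower limit of width, 210 of 4049 regions of 2000 to under 2200 bp were shouldered, against 211 of 4817 with the same arrangement just outside, from 1800 to under 2000 bp. At the upper limit, 4 of 244 regions of 8500 to under 10000 bp were shouldered and 6 of 168 of 10000 to under 12000 bp had the arrangement. The midpoint decided some cases closely, since the valley ended at the midpoint bin itself in 254 shouldered regions, and 262 regions with a covered midpoint had a free bin directly beside it.

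**Figure D1:**
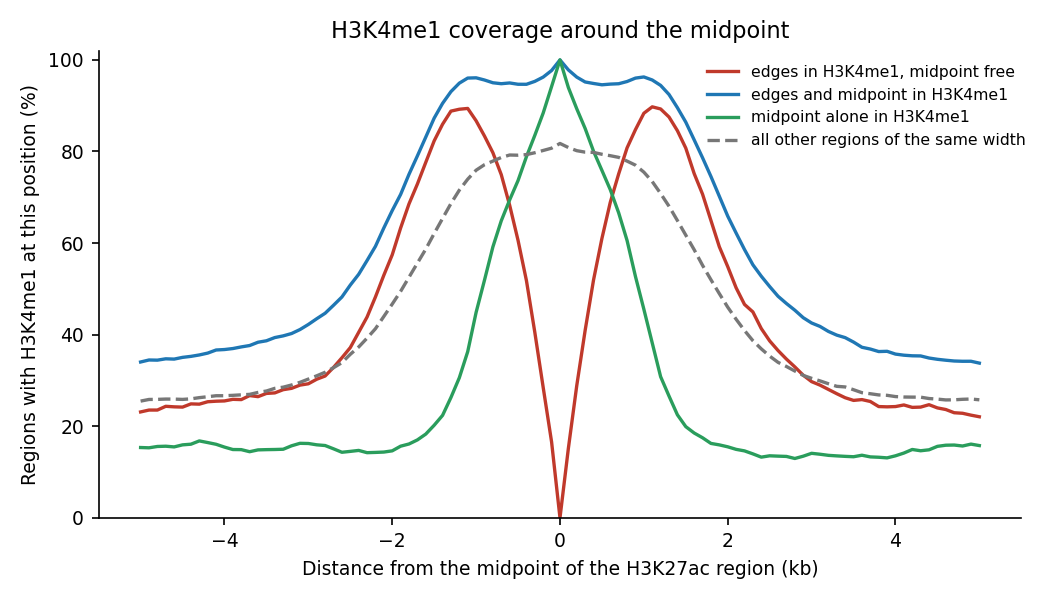
Share of H3K27ac regions with H3K4me1 at each distance from the region midpoint (kb), for 1708 shouldered regions (red), 10598 regions with edges and midpoint covered (blue), 2096 with the midpoint alone covered (green) and 23195 other regions (grey, dashed), the last 3 weighted to the widths of the shouldered regions. The other regions include the blue and the green group. The values at the midpoint follow from how the groups were formed. The shoulders peaked 1.1 kb from the midpoint at 89.4% on the left and 89.8% on the right. These peaks also follow in part from the choice, since both edges had to be covered.

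The valley, the unbroken H3K4me1-free stretch that holds the midpoint, had a median length of 850 bp (interval of the median 800 to 850 bp), with quartiles of 500 and 1300 bp and a range of 50 to 5000 bp. It took up a median of 28.5% of the region. Short valleys were common: 586 (34.3%) were no longer than 600 bp, the upper end of the sonicated fragment sizes given in the labels, 118 (6.91%) were no longer than 200 bp, the lower end, and 15 were a single bin. At the other end, 648 valleys (37.9%) exceeded 1000 bp, 116 (6.79%) exceeded 2000 bp and 25 exceeded 3000 bp. In 1504 of the 1708 regions (88.1%) the valley was the only H3K4me1-free stretch, and 204 regions held from 1 to 3 further breaks. Shoulder lengths run from the region edge to the valley and include any further break.

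Wider regions had longer valleys, but from 4 kb upwards not in proportion. The median valley was 700 bp in regions of 2 to 3 kb, 1000 bp at 3 to 4 kb, 1150 bp at 4 to 6 kb and 1300 bp in the 49 regions of 6 to 10 kb, each class without its upper end. As a share of the region it was 29.3%, 28.9%, 24.7% and 18.9% in these classes. Over the 1708 regions Spearman's rho between width and valley length was 0.35, as a description, since a valley cannot exceed its region. Between width and the valley's share of the region, rho was -0.06. A single shoulder, with any further break included, had a median length of 900 bp in the narrowest class and 2850 bp in the widest. Most of the added width thus lay outside the valley. H3K4me1 covered a median of 70.5% of the region in the narrowest class and 73.2% in the widest.

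The longest valleys took up most of their regions. The first lay on chromosome 4 from 101412551 to 101419700, where a valley of 5000 bp stood between shoulders of 700 bp on the left and 1450 bp on the right. The second was on chromosome 2 from 165612301 to 165617800, with a valley of 4400 bp between shoulders of 300 and 800 bp. The third, on chromosome 1 from 229414251 to 229418850, had a valley of 4300 bp, or 93.5% of the region, and its H3K4me1 ran on for 8650 bp beyond the left edge. The fourth, on chromosome 4 from 102067951 to 102072750 (valley 4000 bp), lay 200 bp from the next H3K27ac region and had a score of 0.009. The fifth was on chromosome 22 from 41486251 to 41491400, with a valley of 3900 bp. The other 4 of these 5 regions had the lowest score, 0.001.

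Among the 5 widest shouldered regions the valley ranged from 2.96% to 32.1% of the region, and in 4 of them it was below the median share of 28.5%. The widest, on chromosome 10 from 70087151 to 70096650, was 9500 bp wide, with a valley of 3050 bp (32.1% of the region), shoulders of 4500 and 1950 bp and 2 further breaks. The next was on chromosome 11 from 59377951 to 59387000, with a valley of 1550 bp (17.1%). Those on chromosome 2 from 69792851 to 69801750 and on chromosome 3 from 128061601 to 128070400 had valleys of 1250 and 1200 bp, which were 14.0% and 13.6% of the region. On chromosome 11 from 69452301 to 69460750 a valley of 250 bp (2.96%) split a region of 8450 bp, and H3K4me1 ran on for 10950 bp beyond the right edge.

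The H3K4me1-free positions were most frequent at the centre in regions under 6 kb when regions were taken by their covered edges alone. The 12306 regions with both edges covered comprised the shouldered ones and those with a covered midpoint, and 4900 of them (39.8%) held at least 1 break in H3K4me1. At 2 to 3 kb, 12.8% were free at 47.5% of the width and 13.0% at 52.5%, against 4.95% at 22.5% and 5.25% at 77.5%. At 3 to 4 kb the central values were 17.2% and 16.7%, against 8.05% and 7.91%. Part of this rise follows from the choice, since a break between 2 covered edges has fewer possible places away from the centre, the more so in a narrow region. How much of it does was not tested. In the 668 regions of 6 to 10 kb the centre did not stand out: 7.19% and 7.49% were free there, against 9.88% at 22.5% and 7.63% at 77.5% of the width.

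**Figure D2:**
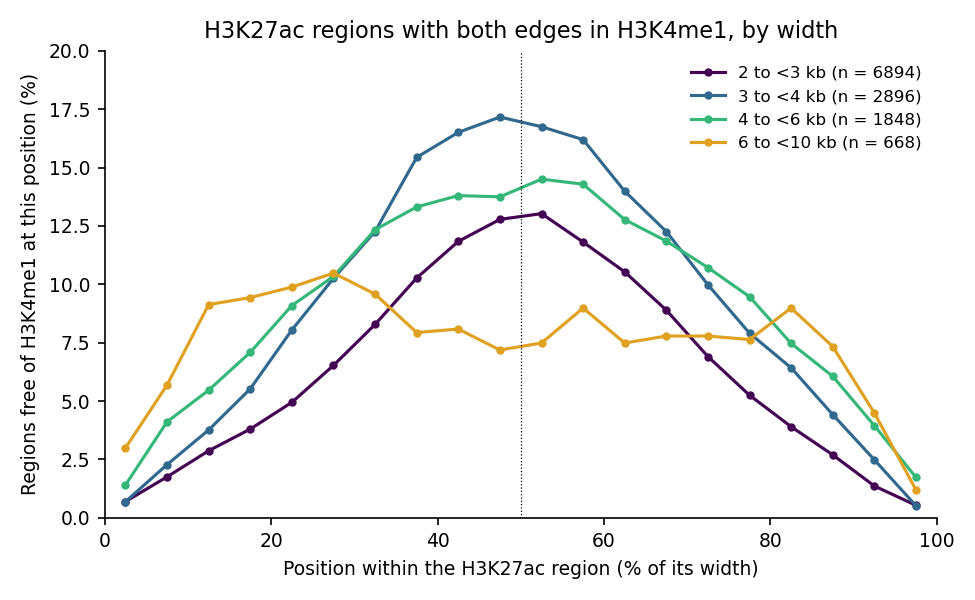
Share of H3K27ac regions with both edges in H3K4me1 that were free of H3K4me1 at each relative position (% of the region width, from left to right), in 4 width classes. The 3 narrower classes rise towards the centre, to 13.0%, 17.2% and 14.5%, while the widest class has its highest value, 10.5%, at 27.5% of the width.

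Valleys were longer than the other breaks in these regions. The 12306 regions held 5811 breaks, of which the 1708 valleys had a median of 850 bp and the 4103 breaks elsewhere a median of 250 bp (quartiles 100 and 500 bp). A longer break is more likely to hold the midpoint, so part of this difference follows from the choice. Taken by the position of the break's own centre, 2073 of 5811 breaks (35.7%) lay in the middle 20% of the region, 576 (9.91%) in the first 20% and 587 (10.1%) in the last. The covered edges limit the outer positions here too. Median lengths were 450 bp in the middle, 400 bp in the 20% on either side of it and 250 bp in the first and in the last.

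The 2 shoulders of a region were mostly of similar length. The left shoulder had a median of 1050 bp (quartiles 750 and 1400 bp) and the right shoulder 1000 bp (750 and 1350 bp). The longer shoulder was at most 1.5 times the shorter in 1093 of 1708 regions (64.0%, 61.7% to 66.3%), at least 2 times in 348 (20.4%) and at least 5 times in 79 (4.63%). The centre of the valley lay a median of 150 bp from the centre of the region, within 100 bp in 734 regions (43.0%) and more than 500 bp away in 91 (5.33%). Since the valley must hold the midpoint, a short valley is central by construction: the median offset was 75 bp for valleys up to 600 bp and 250 bp for those over 2000 bp.

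The left shoulder was the longer one somewhat more often, a direction that the choice of midpoint bin favours. The left shoulder was the longer in 857 regions (50.2%), the right in 761 (44.6%) and they were equal in 90. Where the number of bins is even, the bin right of the midpoint was used, and there the left was longer in 437 of 858 regions and the right in 372. In regions with an odd number of bins, where the choice favours no side, the left was longer in 420 of 850 (49.4%, 46.0% to 52.8%) and the right in 389 (45.8%, 42.4% to 49.2%), with overlapping intervals.

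**Figure D3:**
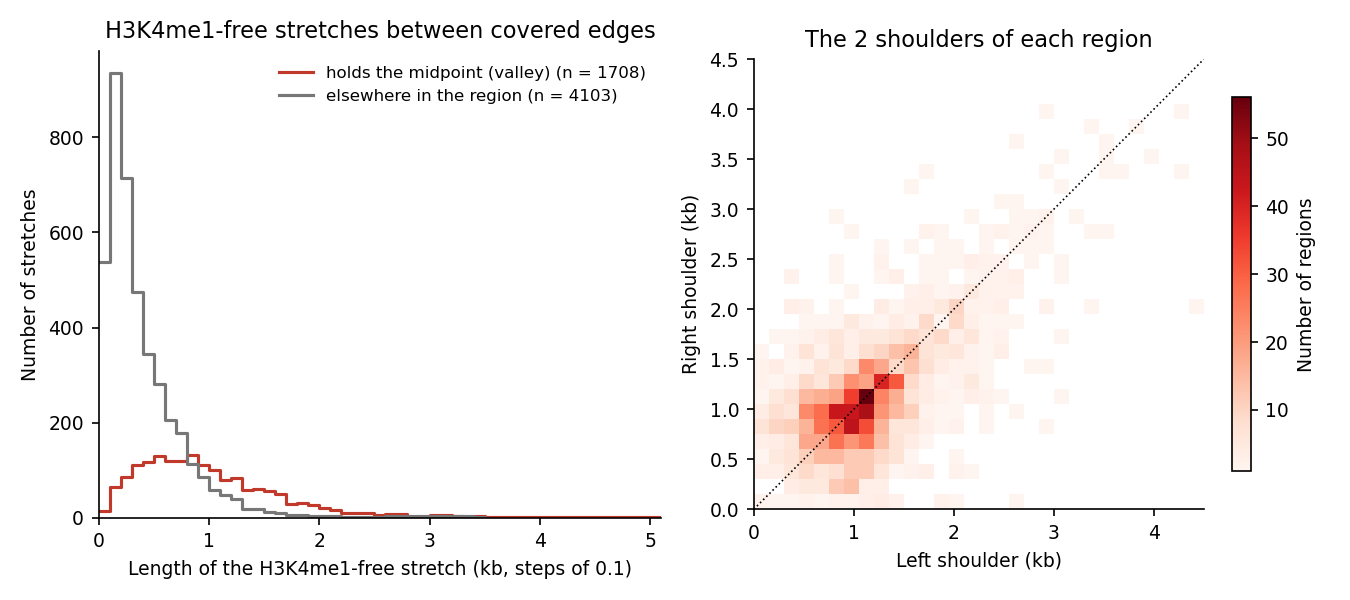
Left, number of H3K4me1-free stretches by length (kb) in regions with both edges covered, for the 1708 valleys (red) and the 4103 breaks elsewhere (grey); medians were 850 and 250 bp. Right, left against right shoulder length (kb) of the 1708 shouldered regions, with colour for the number of regions and a dotted line of equal length; most lie near the line, at about the medians of 1050 and 1000 bp.

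Beyond the H3K27ac edges, which the choice of regions did not use, the H3K4me1 of the shoulders soon ended. It ran on for a median of 500 bp (quartiles 250 and 900 bp, 3416 edges), against 650 bp (300 and 1350 bp) in regions of the same width with edges and midpoint covered. H3K4me1 covered a median of 57.5% (interval of the median 55% to 60%) of the 1 kb beyond each edge of shouldered regions, against 67.5% in those regions and 45% in all other regions of the same width. Shouldered regions were below the regions with covered edges and midpoint in 21 of 22 chromosomes, and above all other regions in 21 of 22. The last contrast involves the choice, since all other regions include those with uncovered edges. The contrast with covered edges and midpoint involves it too, since a covered midpoint favours wide H3K4me1 regions that span the whole H3K27ac region. How much of either contrast this gives was not tested. Over 5 kb, coverage was 27% in shouldered regions, against 39% with edges and midpoint covered.

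In the 1504 regions without a further break, the shoulder and the outer extension are parts of 1 H3K4me1 region divided by the H3K27ac edge. There, for a given H3K4me1 width, a longer inner part leaves a shorter outer part. The 204 regions with further breaks were kept in the counts that follow. Where both differed between the sides, the longer outer extension was on the side of the shorter shoulder in 907 of 1556 regions (58.3%, 55.8% to 60.8%) and on the side of the longer shoulder in 649; how much of this split the division gives was not tested. The nearest H3K27ac neighbour lay on the side of the longer shoulder in 844 of 1614 regions (52.3%, 49.8% to 54.8%), an interval that holds an even split.

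The H3K4me1 regions directly beside the valleys were wide and of similar width, traits that the choice of regions favours. Their median width, including any part beyond the H3K27ac edge, was 1450 bp (quartiles 1100 and 2050 bp, 3416 regions). H3K4me1 regions beside breaks of the same lengths that held no H3K27ac had a median of 1050 bp (750 and 1850 bp). Beside other breaks of those lengths lying wholly in H3K27ac, the median was 1250 bp. The wider of the 2 regions beside a break was a median of 1.41 times the narrower at valleys, 1.75 times at breaks without H3K27ac and 1.64 times at other breaks in H3K27ac. An H3K4me1 score of 0.003 or less was carried by 54.2% (52.5% to 55.8%) of the regions beside valleys. It was carried by 29.3% of those beside breaks without H3K27ac and 43.5% beside other breaks in H3K27ac. The choice enters here, since a narrow H3K4me1 region seldom reaches an H3K27ac edge. It enters the ratio of widths too, since a valley over the midpoint between covered edges favours 2 sides of similar length. The breaks compared had no such limit. How much of these differences the choice gives was not tested.

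The H3K27ac score of shouldered regions was somewhat more often at its lowest value than in other regions of the same width. The score is the authors' unnamed value per region, which falls with width and is read here as more stringent when low. It was at its lowest value, 0.001, in 759 shouldered regions (44.4%, 42.1% to 46.8%), against 40.5% of the other regions weighted to the same widths and 42.1% of those with edges and midpoint covered. The last value lay at the lower end of the interval. The difference was clearest at 3 to 4 kb, where 64.4% (60.1% to 68.6%) of 506 shouldered regions had the lowest score, against 55.1% (53.7% to 56.4%) of 5251 other regions and 56.4% (54.3% to 58.4%) of those with edges and midpoint covered. At 2 to 3 kb the values were 19.3% (16.8% to 22.1%) in shouldered regions, 18.3% (17.3% to 19.3%) with edges and midpoint covered and 16.8% (16.2% to 17.5%) in the others, and the interval of the shouldered regions overlapped both of the other intervals. Within single chromosomes, weighted to width class, the share was higher in shouldered regions on 17 of 22. High scores were rare: 27 shouldered regions (1.58%, 1.04% to 2.29%) had 0.014 or more, against 1.36% of the others and 0.745% of those with edges and midpoint covered, which lay below the interval.

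The relation of score to valley length changed when width was held to a single class. Over all shouldered regions, the lowest score was carried by 36.9% of those with valleys up to 600 bp and by 69.0% of those with valleys over 2000 bp, but the median widths of these were 2650 and 4450 bp. Among regions of 3 to 4 kb alone, the ends were the other way round: 73.8% (65.4% to 81.2%) of 130 regions with valleys up to 600 bp had the lowest score, 61.5% (52.7% to 69.7%) of 135 with valleys up to 1000 bp, 64.5% (57.4% to 71.1%) of 200 with valleys up to 2000 bp and 43.9% (28.5% to 60.3%) of 41 with longer valleys.

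Among regions with the lowest score and a valley centred within 50 bp, the 5 with the longest valley differed in their shoulders. The first is the chromosome 1 region from 229414251 given above, whose shoulders were only 200 and 100 bp. On chromosome 18 from 9101101 to 9106450, a valley of 3750 bp stood between shoulders of 800 bp on each side. On chromosome 5 from 133508551 to 133514100 the valley was 3200 bp, with shoulders of 1150 and 1200 bp. On chromosome 9 from 110044151 to 110050250 it was 2650 bp, with shoulders of 1700 and 1750 bp. On chromosome 20 from 10413601 to 10417550 it was 2350 bp, with shoulders of 750 and 850 bp.

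Spacing to the next H3K27ac region of any width differed little from that of other regions. The median distance from edge to edge was 4900 bp (interval of the median 4350 to 5400 bp) in shouldered regions, and the value of 4600 bp in other regions of the same width lay inside this interval. Regions with edges and midpoint covered lay closer to a neighbour, at 4050 bp. A neighbour within 5000 bp was found for 50.5% (48.1% to 52.9%) of shouldered regions, against 52.4% of the others and 56.6% of those with edges and midpoint covered. H3K27ac regions lay within 12.5 kb on both sides for 29.6% (27.4% to 31.8%) of shouldered regions, against 32.3% and 35.9%, both above the interval. At 6 to 10 kb the distance was 2700 bp (1950 to 3750 bp) in 49 shouldered regions and 1750 bp (1500 to 1950 bp) in the others.

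**Figure D4:**
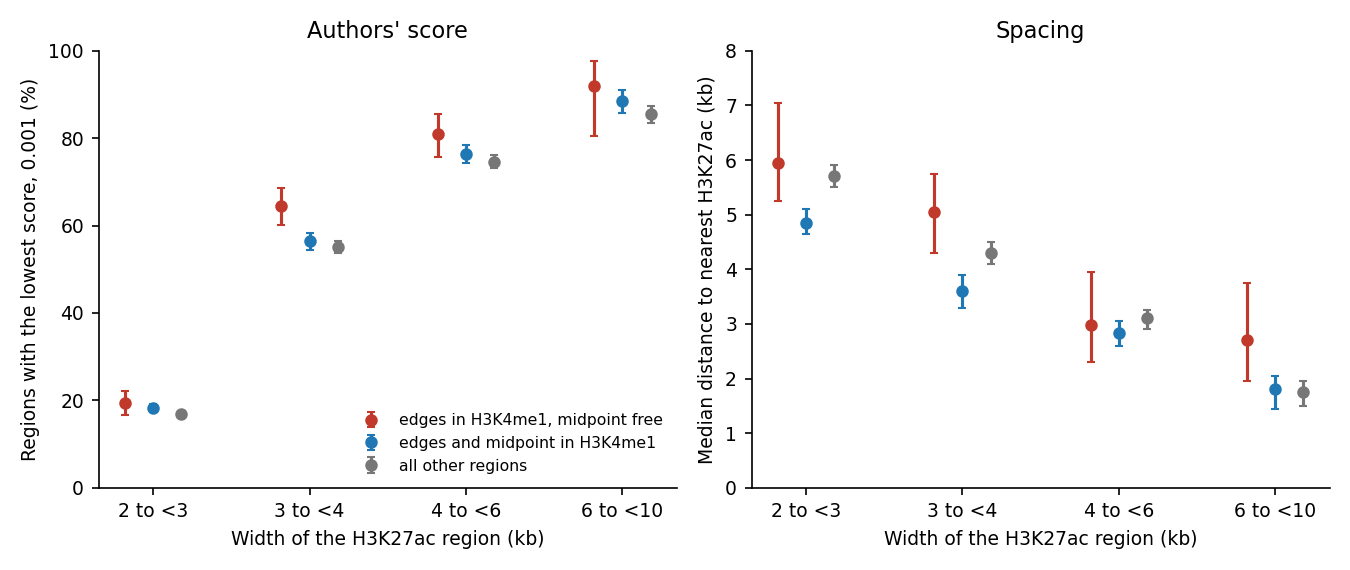
Share of regions with the lowest H3K27ac score (left, %) and median distance to the nearest H3K27ac region (right, kb) by width class, for shouldered regions (red), regions with edges and midpoint covered (blue) and all other regions (grey), with exact 95% intervals over regions. All other regions include the blue group. At 3 to 4 kb the share was 64.4% in shouldered regions, against 56.4% in those with edges and midpoint covered and 55.1% in all others.

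Shouldered regions seldom followed each other directly, but had a shouldered neighbour somewhat more often than other regions of the same width did. The nearest other shouldered region was a median of 312 kb away (quartiles 99.8 and 819 kb), and 96 (5.62%) had one within 12.5 kb. In the order of the H3K27ac list, 134 shouldered regions (7.85%, 6.61% to 9.22%) had a shouldered region as a direct neighbour, against 5.23% of other regions of the same width and 5.35% of those with edges and midpoint covered. Each pair of shouldered neighbours is counted from both sides, so the 134 are not separate events and their interval is too narrow. A direct neighbour with edges and midpoint covered was found for 30.6% (28.4% to 32.8%) of shouldered regions. The value in other regions of the same width, 32.2%, lay inside this interval. It was 43.9% for the regions with edges and midpoint covered themselves. There were 64 runs of 2 and 2 runs of 3. A run of 3 lay on chromosome 1 from 145095501 to 145106100, with valleys of 1200, 1600 and 350 bp, and the other on chromosome 2 from 55457751 to 55497600, with valleys of 2100, 750 and 1050 bp. The first run of 2 was on chromosome 1 from 237339501 to 237355100. The windows of 1 Mb with the most shouldered regions were on chromosome 16 from 67000001 to 68000000, with 7 among 39 regions of the width range, on chromosome 17 from 7000001 to 8000000, with 7 among 26, and on chromosome 9 from 79000001 to 80000000, with 6 among 25. There were 2 windows with 6, of which the first in chromosome order is given.

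Density varied 5.84-fold between chromosomes, largely with that of H3K27ac. Shouldered regions numbered 0.611 per Mb of autosome span. Chromosome 19 had 1.46 per Mb, chromosome 17 1.12 and chromosome 22 1.11, and chromosome 13 had the fewest, 0.250. Over the 22 chromosomes, Spearman's rho with the density of all H3K27ac regions of the width range was 0.86, as a description with shouldered regions in both quantities. As a share of those regions, the values spread 2.03-fold, from 5.11% (4.09% to 6.29%) on chromosome 5 to 10.4% (8.37% to 12.6%) on chromosome 19. The interval held the autosome share of 6.86% on 17 chromosomes. It lay above it on chromosomes 2 (8.28%), 16 (8.80%) and 19, and below it on chromosomes 1 (5.36%) and 5. Copy number differs between parts of the LNCaP genome, and its part in these values was not tested.

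Among regions whose edges both lay in H3K4me1, chromosome 18 stood out. The midpoint was free in 33 of 97 such regions there (34.0%, 24.7% to 44.3%), against 1708 of 12306 over all autosomes (13.9%, 13.3% to 14.5%). Chromosome 4 (21.2%, 17.4% to 25.5%), 6 (20.5%, 17.3% to 24.1%) and 2 (18.6%, 16.0% to 21.3%) were also above the autosome share with their whole intervals. Chromosomes 20 (9.74%, 6.95% to 13.2%), 1 (10.0%, 8.56% to 11.6%) and 17 (11.4%, 9.26% to 13.8%) were below it in the same way. Within these regions the free-midpoint share was lower where H3K4me1 covered more of the chromosome. Spearman's rho was -0.66 over 22 chromosomes and -0.61 over the 21 without chromosome 18. This is a description in which H3K4me1 enters both quantities. With the share of all regions of the width range in its place, rho with H3K4me1 coverage was -0.014 over 22 chromosomes. By that share chromosome 18 had 9.38% (6.54% to 12.9%). Its interval held the autosome share of 6.86%, as did those of chromosomes 4 and 6. H3K4me1 covered 3.94% of the span of chromosome 18 and 14.5% of that of chromosome 1.

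**Figure D5:**
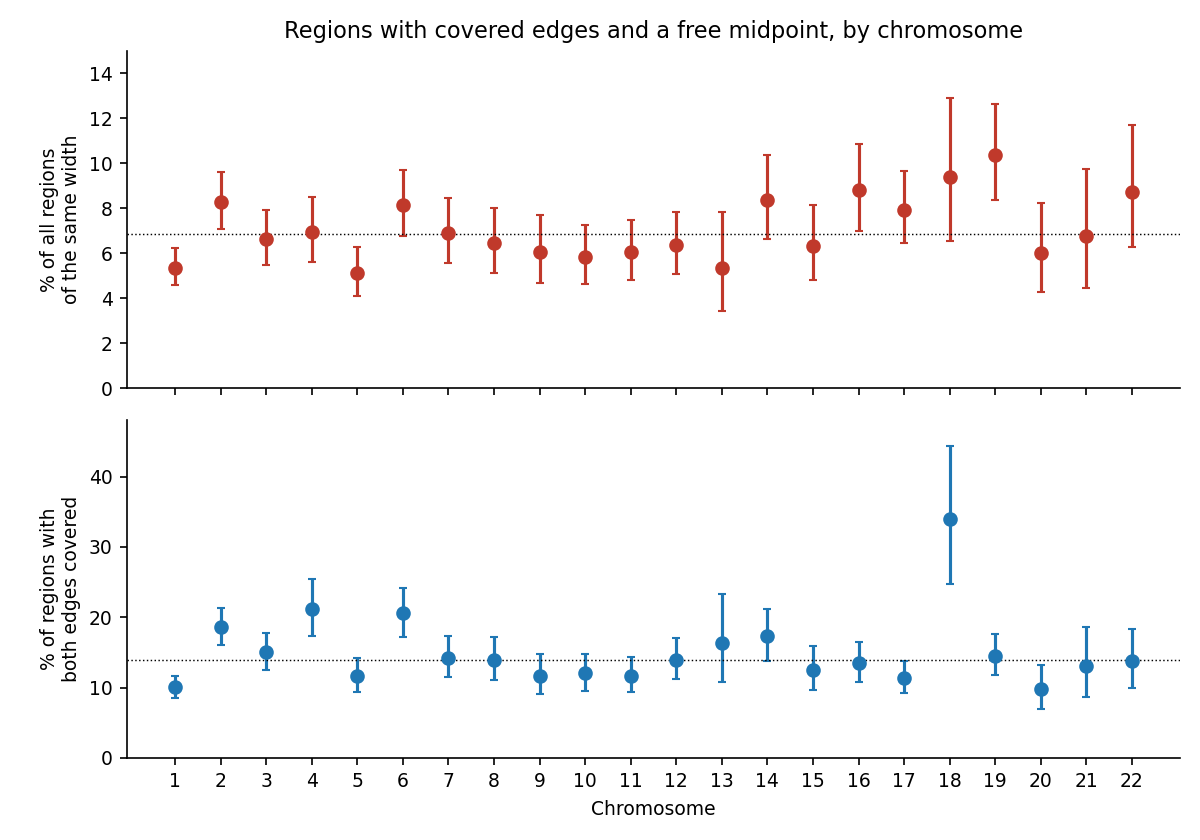
Shouldered regions by chromosome as a share of all H3K27ac regions of the same width range (top, %) and of the regions with both edges in H3K4me1 (bottom, %), with exact 95% intervals over regions and dotted lines at the autosome shares of 6.86% and 13.9%. Chromosome 19 has the highest value above, 10.4%, and chromosome 18 below, 34.0%.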

How the data were processed

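The authors' 2 deposited lists give a chromosome, start, end and 1 unnamed score per region, without a header. The submitters' processing notes name Bowtie 0.12.8 and the build hg19. What called the regions, at which threshold and whether against the input is not given in the sources used here. That deposited score has 12 values in the H3K27ac list, up to 0.048, and 13 in the H3K4me1 list, up to 0.093. Its use here was to rank and filter within each list. A caller's threshold and joining distance set where regions break, so valleys are gaps in a list and not measured signal.

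All starts and ends lie on a grid of 50 bp, on which coverage was read. The mitochondrial regions were left out. Other regions were weighted so that each width, in steps of 50 bp, counted as often as among the shouldered regions. Shares have exact Clopper-Pearson 95% intervals and medians exact order-statistic intervals. No test was run, as each mark has 1 library. The measures were checked on simulated lists with known valleys. Regions were named by rule: the 5 longest valleys, the 5 widest, the 5 lowest-scored with the longest centred valley, the 3 longest runs and the 3 richest windows of 1 Mb. The members, comparisons and lists were chosen with earlier results of these data known. The gene and promoter tables at hand are of GRCh38, so no gene name or sequence was assigned and the planned comparison with start sites was not run. Alternatives are described at the end. Tools were Python 3.11.15 with scipy 1.17.1 for intervals, pandas 2.3.3 and numpy 2.4.6 for the tables, and matplotlib 3.10.9 for figures.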

Additional observations from a re-analysis of the deposited data

Results flagged for a closer look

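The arrangement also occurred in data outside the limits of chromosome and width. On chromosome X, 44 of 615 H3K27ac regions of the same width range had both edges in H3K4me1 and a free midpoint (7.15%, exact 95% interval 5.25% to 9.49%). On the autosomes, 1028 of 43821 regions narrower than 2000 bp had it (2.35%, 2.21% to 2.49%), as did 17 of 436 regions of 10 kb or more (3.90%, 2.29% to 6.17%).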

How the results depend on the processing

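Of 109 alternative values, 87 stayed within the interval of the reported value, or within 1.5 times a count, 21 left it and 1 changed sign. The number of shouldered regions stayed between 1294 and 1712. Their share, 6.86%, was 6.03% with all central bins free, 6.48% with H3K4me1 scores under 0.05, 6.46% and 5.20% with H3K4me1 regions within 200 and 500 bp joined, and 6.41% with the outer 200 bp covered. The median valley, 850 bp, was 900 bp with all central bins free or with joining at 200 bp, and 1050 bp with joining at 500 bp, where the offset was 187.5 bp, the difference of the shoulders over their sum 0.190 (0.133 as reported) and the lowest-score share 47.8%. Joining fills short breaks, which leaves the longer valleys. With valleys over 600 bp alone, chosen after seeing the data, these 4 values were 1100 bp, 200 bp, 0.211 and 48.4%. The distance to the nearest H3K27ac region was 9200 bp with scores up to the list median, which thins the neighbours, and 1150 bp above that of the others. It was 5800 bp with H3K27ac regions within 500 bp joined and 7612.5 bp between midpoints. Against regions with edges and midpoint covered, it was 850 bp greater, and outer H3K4me1 coverage, 12.5 percentage points above all others, was -10 points. By share, chromosome 5 replaced chromosome 13 as the lowest. No paired analysis was possible because there is a single library per mark. Depth is not known, which limits what a gap in the H3K4me1 list can show.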

Other observations

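Seen from the H3K4me1 list, short breaks lay in H3K27ac more often than long ones. Of 109251 breaks of up to 5 kb between neighbouring H3K4me1 regions on the autosomes, 15373 (14.1%) lay wholly in an H3K27ac region and 80555 (73.7%) held no H3K27ac. The share wholly in H3K27ac was 37.1% (36.3% to 37.8%) for breaks of up to 200 bp, 27.2% (26.6% to 27.8%) for those over 200 and up to 600 bp, 17.0% (16.3% to 17.6%) up to 1000 bp, 7.02% (6.69% to 7.36%) up to 2000 bp and 1.0% (0.906% to 1.11%) up to 5000 bp. A short break is more easily held by a region, so a fall with length is expected from geometry alone. Valleys of shouldered regions made up 2.10% of the breaks up to 200 bp wholly in H3K27ac, 20.7% of those over 600 and up to 1000 bp and 33.4% of those over 1000 and up to 2000 bp.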
